A study of Nannochloropsis oceanica with 8 samples.

Results

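Isolated peaks are the ChIP-seq peaks of this alga that lie far from any other peak. Peaks were ordered along each chromosome, and a peak was kept if it had a neighbour on both sides and at least 6000 bp to each of them. The rule used positions alone and no measured level. It found 209 of 6185 peaks, on 30 chromosomes. The first and last peak of each chromosome, 60 in all, have 1 neighbour and could not be members.

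Dimethylation of lysine 9 of histone H3 (H3K9me2) is known from many eukaryotes as a mark of silenced chromatin, repeats and transposons. Kbu is the usual short name of lysine butyrylation, an acyl mark made from butyryl-CoA, which on histones is generally found at the starts of active genes. It ties chromatin to carbon and fatty acid metabolism, which CO2 supply alters in algae. Nuclear genes were not assigned to the peaks, which are given by their position and number in the files.

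The cells were of strain IMET1 of Nannochloropsis oceanica, a single-celled oil-producing alga of the sea, and the labels name no genetic change. High-CO2 cultures received 5% CO2, and low-CO2 cultures were moved to 0.04% CO2 and sampled at 24 h. Each of the 4 groups, H3K9me2 or Kbu at high or low CO2, had 2 libraries. The labels name 3 cultures per CO2 level without tying libraries to them, so every p-value measures the spread between libraries, which may be technical.

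The authors' tables give, for each peak and library, a ChIP pileup and a control background. A level here is the pileup divided by the lowest control value of that library, so that 1 stands for the lowest background. The pileup at the median isolated peak was worth 29 to 67 reads in the H3K9me2 libraries and 101 to 834 reads in the Kbu libraries. Counting error at that depth was 12.2 to 18.6% for H3K9me2 and 3.46 to 9.95% for Kbu. How many reads each library held in all is unknown. The control was itself higher at low CO2, with a median at isolated peaks of 1.29 to 1.33 times its lowest value at high CO2 and 3.32 times at low CO2.

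The smaller of the 2 gaps around an isolated peak had a median of 7042 bp (quartiles 6530 and 7995 bp, highest 18024 bp), and the larger gap a median of 9560 bp. Among all other peaks the medians were 1976 and 4463 bp. Isolated peaks mostly stood singly: 129 had no isolated neighbour, 62 formed 31 pairs and 18 formed 6 runs of 3. Peaks in a pair or run share a gap, so they are not independent of each other. At the threshold itself, peak1312 (smaller gap 6025 bp) and peak3950 (6032 bp) lay just inside and peak4125 (5997 bp) and peak5743 (5975 bp) just outside.

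Isolated peaks were more often near the ends of the peak span of a chromosome than other peaks were, though most lay in the middle 80%. Of the 209, 46 (22.0%) fell in the first 10% of the span between the first and last peak of their chromosome and 39 (18.7%) in the last 10%. Other peaks had 7.86% and 7.61% there, which is 470 and 455 peaks, against 695 in the fifth 10% of the span. The rule selects stretches with few peaks, so this position is a description and not an independent trait. The middle 80% of the span held 59.3% of isolated and 84.5% of other peaks. Chromosomes 21 to 30 had 71 isolated peaks among 1219 (5.82%), against 65 of 1956 (3.32%) on chromosomes 11 to 20 and 73 of 3010 (2.43%) on chromosomes 1 to 10. The share was highest on chromosome 27 (11 of 107, 10.3%) and lowest on chromosome 7 (3 of 278, 1.08%).

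**Figure D1:**
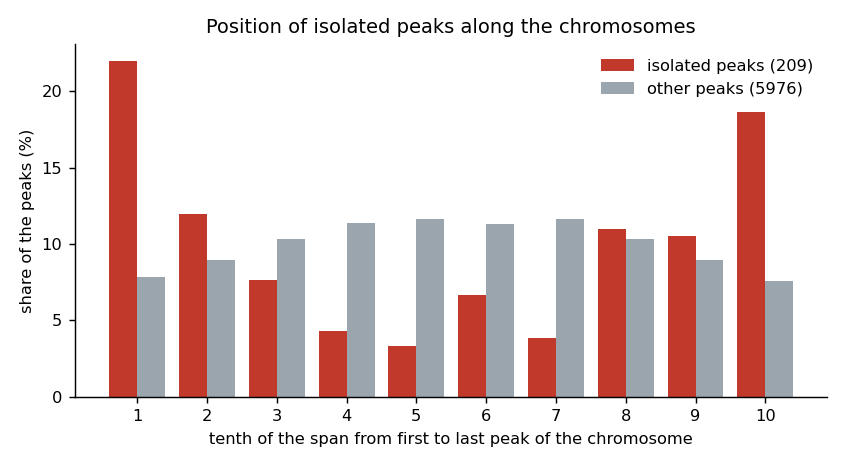
Share of isolated peaks (209) and of all other peaks (5976), in percent, in each 10% of the span from the first to the last peak of a chromosome, over 30 chromosomes. The outermost bars hold 22.0% and 18.7% of the isolated peaks, and the fifth bar holds 3.35%.

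Isolated peaks were also wider. Their median width was 1128 bp (quartiles 955 and 1265 bp, range 325 to 2388 bp), 100 bp above the 1028 bp of other peaks (quartiles 756 and 1166 bp). The widest quartile of all peaks, above 1169 bp, took in 85 isolated peaks (40.7%) and 24.4% of the others. The narrowest quartile, under 759 bp, took in 35 (16.7%) and 25.3%. Median width was larger in most classes of wider smaller gap, from 783 bp at gaps under 500 bp (180 peaks) to 1121 bp at 6000 to 8000 bp (157 peaks) and 1157 bp beyond 8000 bp (52 peaks). Within the isolated peaks gap and width were hardly related, with a Pearson correlation of 0.015 over 209 peaks of 1 shared peak set. The widest isolated peaks were peak5311 (chromosome 6, 1013573 to 1015961, 2388 bp) and peak4646 (chromosome 4, 841891 to 844249, 2358 bp), and the narrowest were peak4044 (chromosome 29, 494037 to 494362, 325 bp) and peak1089 (chromosome 13, 134822 to 135222, 400 bp).

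Kbu was the higher of the marks at isolated peaks. Its median level was 3.79 and 3.83 in the high-CO2 libraries and 2.43 and 2.51 in the low-CO2 libraries. H3K9me2 stayed close to background, at 1.29 and 1.44 at high CO2, then 1.45 and 1.60 at low CO2. On this scale the Kbu medians were lower at low CO2, without overlap. Those of H3K9me2 were slightly higher at low CO2, but the nearest, 1.444 and 1.454, almost touched. Other peaks had the same order. Their Kbu medians were 3.71 and 3.71 at high CO2, then 2.54 and 2.63, and their H3K9me2 medians 1.35 and 1.44, then 1.50 and 1.65. Over the control at the same peak, which was higher at low CO2, both marks were lower: the H3K9me2 medians were 1.01 and 1.13 at high CO2 but 0.445 and 0.480 at the low level. The Kbu medians over the control were 2.78 and 2.93, and at low CO2 0.709 and 0.747, below the control. A level of at least 2 in both libraries of a group was reached for Kbu by 199 isolated peaks (95.2%) at high and 147 (70.3%) at low CO2. Among all peaks 92.7% and 75.2% reached it. For H3K9me2 it was reached by 1 (0.478%) and 7 (3.35%), beside 0.162% and 5.13% of all peaks. At least 2 times the control was reached for Kbu by 178 (85.2%) at high but 1 (0.478%) at low CO2, and for H3K9me2 by 1 and 0. Among all peaks these shares were 84.2% and 0.243% for Kbu, and 0.146% and 0.275% for H3K9me2.

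Compared with other peaks, isolated peaks differed little in level. The mean of the library medians for Kbu at high CO2 was 3.81 ± 0.029 (SD, n = 2) at isolated and 3.71 ± 0.0016 at other peaks. At low CO2 the order was the opposite, 2.47 ± 0.053 against 2.59 ± 0.066. On the log2 scale isolated peaks were 0.041 ± 0.010 above others at high CO2 and -0.066 ± 0.0059 from them at low CO2, with the same sign in both libraries each time. Against other peaks weighted to the same width quartiles, the high-CO2 difference changed sign to -0.030 and the low-CO2 difference was -0.12. For H3K9me2 the differences were -0.028 ± 0.039 at high and -0.040 ± 0.0028 at low CO2. No test was made on these medians, since 2 libraries against 2 cannot give an exact two-sided permutation p below 0.333.

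**Figure D2:**
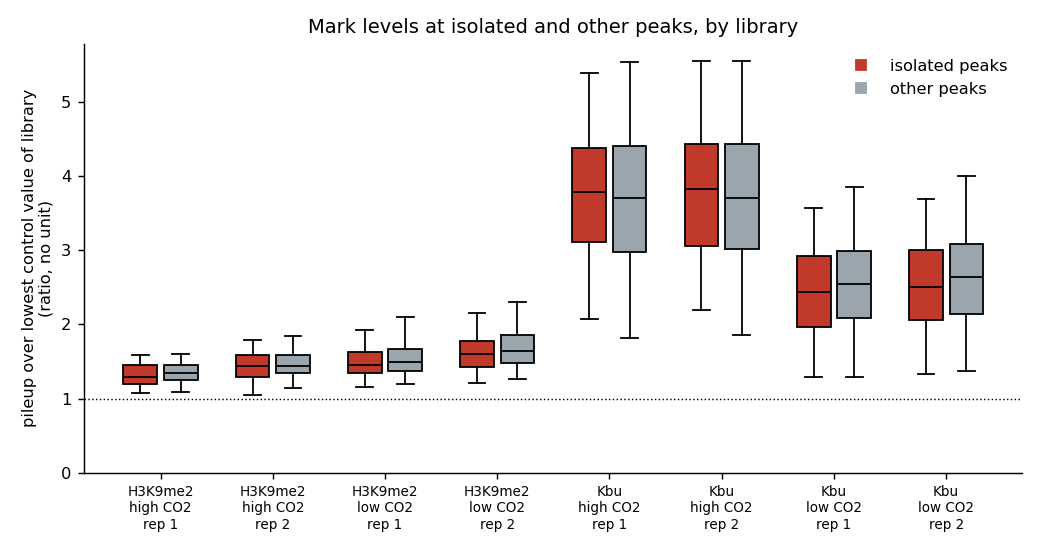
Level (pileup over the lowest control value of the library, a ratio without unit) at isolated and other peaks in each of the 8 libraries. Boxes span the quartiles with the median as a line, whiskers reach the 5th and 95th percentiles, and the dotted line marks 1. Isolated medians for Kbu are 3.79 and 3.83 at high CO2, then 2.43 and 2.51 at low CO2, while those for H3K9me2 are between 1.29 and 1.60.

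Whether CO2 alters Kbu at isolated peaks was tested on the pileup, after scaling the 4 Kbu libraries to the same geometric mean over all peaks. A change is therefore relative to the bulk of the peaks and is given as low minus high CO2 on the log2(value + 1) scale. Kbu fell at 79 isolated peaks (37.8%), rose at 38 (18.2%) and did not pass at 92. The call was an adjusted p under 0.05 in limma over all 6185 peaks, which called 25.2% of all peaks lower and 21.8% higher. Among other peaks, 24.7% fell and 21.9% rose. The median change was -0.11 at isolated peaks (quartiles -0.34 and 0.10, range -1.27 to 1.32) and -0.02 at others, with 128 isolated peaks below 0 and 81 above.

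Measured instead over the lowest control value, which is not relative to the bulk and takes no pseudocount, the median Kbu change was -0.61 at isolated and -0.53 at other peaks. The difference of these medians was -0.087, and between -0.099 and -0.089 in the 4 pairings of 1 low-CO2 with 1 high-CO2 library. Leaving out 1 library moved the share of isolated peaks that fell between 23.0% and 45.0%, and the lowest came without high-CO2 replicate 2, when 13.3% of other peaks fell. Without high-CO2 replicate 1 or 2 the share that rose was 11.0% each time, beside 13.1% of other peaks.

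A larger share of isolated than of other peaks fell in each width quartile: 25.7% against 18.4% in the narrowest, then 30.6% against 24.3%, 41.5% against 25.0% and, in the widest, 43.5% against 31.5%. The order was also the same in each quartile of Kbu level at high CO2, from 30.6% against 12.0% in the lowest to 60.4% against 43.6% in the highest. That level comes from the libraries of the same contrast, so it is a description. In the outer 10% at either chromosome end 42.4% of isolated and 29.6% of other peaks fell, and in the middle 80% it was 34.7% and 23.8%. The isolated share was above the other share on 22 of the 30 chromosomes and below it on 8.

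The share of falling peaks was larger in most classes of wider gap, without a step at 6000 bp. It was 18.9% at smaller gaps under 500 bp, 22.5% at 1000 to 2000 bp, 30.3% at 4000 to 5000 bp, 35.0% at 5000 to 6000 bp, 37.6% at 6000 to 8000 bp and 38.5% beyond. The share of rising peaks was 46.1% at gaps under 500 bp and between 13.5% and 24.5% in each wider class. A long gap on 1 side only went with 30.4% falling (1707 peaks), and 2 short gaps with 22.5% (4209 peaks). Among the 332 other peaks next to an isolated peak, 33.1% fell. These classes were chosen with the values known and carry no test.

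**Figure D3:**
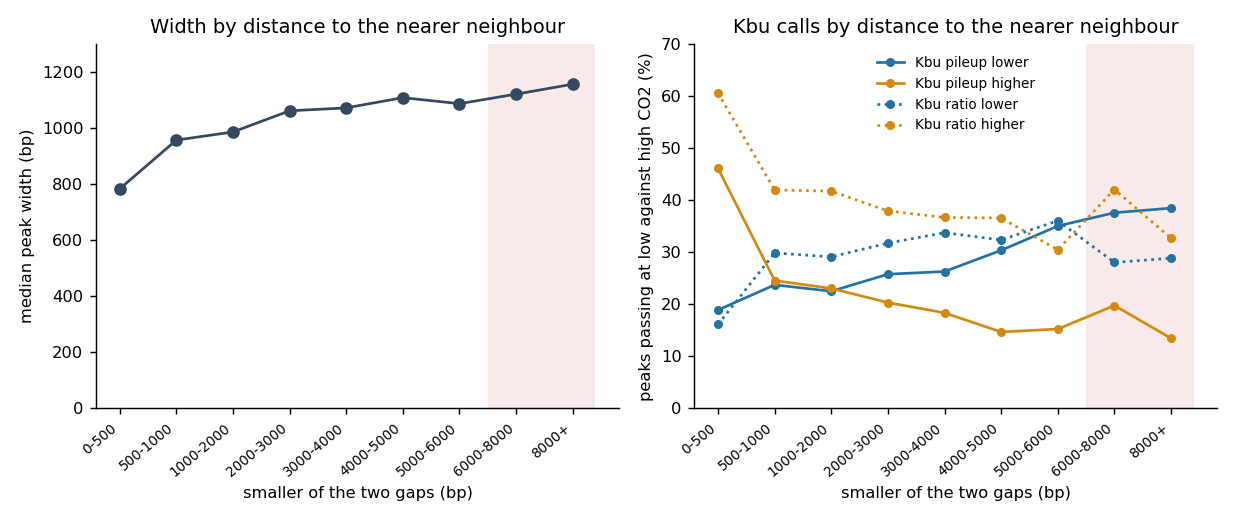
Peaks grouped by their smaller gap (bp), with the share called lower or higher in Kbu at low CO2 (percent, limma adjusted p under 0.05 over all peaks) and the median width (bp) of each class. The share called lower in pileup is 18.9% at gaps under 500 bp and 38.5% beyond 8000 bp, and median width is 783 bp and 1157 bp.

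The authors' normalised value divides the pileup by the control, and on it the isolated peaks did not stand apart in the same way. Kbu fell at 59 isolated peaks (28.2%) and rose at 83 (39.7%), where limma called 30.4% of all peaks lower and 40% higher. With library totals in place of the authors' factors 39.7% of isolated peaks fell and 30.1% rose, beside 40.6% and 31.3% of other peaks. Before the authors' rounding down it was 41.1% and 31.1%, beside 40.8% and 31.9%. Without high-CO2 replicate 1, 12.9% fell and 22.5% rose (others 15.7% and 24.8%), and without high-CO2 replicate 2 it was 9.09% and 26.3% (others 14.2% and 27.1%). The median change was 0.05 at isolated and 0.07 at other peaks. Of the 79 isolated peaks lower in pileup, 40 were also lower in this ratio and 9 were higher. Among all 1557 peaks lower in pileup, 993 were lower in the ratio and 137 higher, which is 16.1% and 2.22% of all peaks. Of the 38 isolated peaks higher in pileup, 34 were higher in both. Over all peaks it was 1061 of 1349, which is 17.2% of all peaks. The control at low CO2 was 3.32 ± 0.033 (SD, n = 2) times its lowest value at isolated and 3.53 ± 0.019 at other peaks, and its part in the difference between the measures was not tested. Across the 209 isolated peaks the control change and the Kbu ratio change had a Pearson correlation of -0.80, but the ratio contains the control. Over all 6125 peaks with 2 neighbours it was -0.85.

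The largest Kbu decrease was at peak2217 (chromosome 19, 32382 to 33503, 1121 bp), with levels of 4.13 and 4.43 at high CO2, then 1.15 and 1.29 at low CO2. The peak was near background at low CO2. The change was -1.27 (SE 0.09, limma adjusted p = 3.0e-06), and -1.46 in the ratio. Peak5134 (chromosome 6, 165775 to 166526, 751 bp) went from 3.96 and 3.83 to 1.36 and 1.04, a change of -1.17 (limma adjusted p = 4.8e-05). Both peaks came down from a Kbu level near the median of the set to one near background.

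Peak3952 (chromosome 29, 50371 to 51709, 1338 bp) started higher, at 5.92 and 5.96, and was at 2.51 and 2.29 at low CO2, a change of -0.79 (limma adjusted p = 2.7e-05). Peak344 (chromosome 1, 1680342 to 1681526, 1184 bp) had 4.02 and 4.08 at high CO2, then 1.91 and 1.42 at low CO2, a change of -0.78 (limma adjusted p = 0.00070). The naming rule took only peaks whose groups did not overlap, so the lack of overlap in these 4 is not a finding. Their pileup call held with any 1 library left out.

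The largest increase was at peak1089, one of the narrowest isolated peaks and the lowest in Kbu at high CO2. Its levels were 0.746 and 0.797 at high CO2, below the lowest background, and 1.29 and 1.59 at low CO2. The change was 1.32 (SE 0.13, limma adjusted p = 3.3e-05), between values that are all close to background. The ratio change of 3.0 was larger, and the control there was at its lowest value of 1.00 at low CO2.

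The other large increases, at peak3295, peak3589 and peak566, started from Kbu levels above background. Peak3295 and peak566 were below the lower quartiles of isolated peaks at high CO2 (3.11 and 3.06), and peak3589 was not. Peak3589 (chromosome 25, 583528 to 584735, 1207 bp) had 3.83 and 4.23 at high CO2, then 5.37 and 5.76 at low CO2, a change of 0.96 (limma adjusted p = 3.9e-06). Peak3295 (chromosome 23, 480459 to 482049, 1590 bp) had 2.85 and 2.70, then 3.93 and 4.30, a change of 1.05 (limma adjusted p = 3.1e-06). Peak566 (chromosome 10, 1148414 to 1149104, 690 bp) had 2.56 and 2.60, then 3.07 and 3.50, a change of 0.83 (limma adjusted p = 2.5e-05). The low-CO2 libraries were above both high-CO2 libraries in all of these after scaling, as the naming rule required. The same order held without scaling to the bulk. Peak566 was the 1 isolated peak whose Kbu pileup was at least 2 times the control in both low-CO2 libraries. Its change in the normalised value was 2.05.

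**Figure D4:**
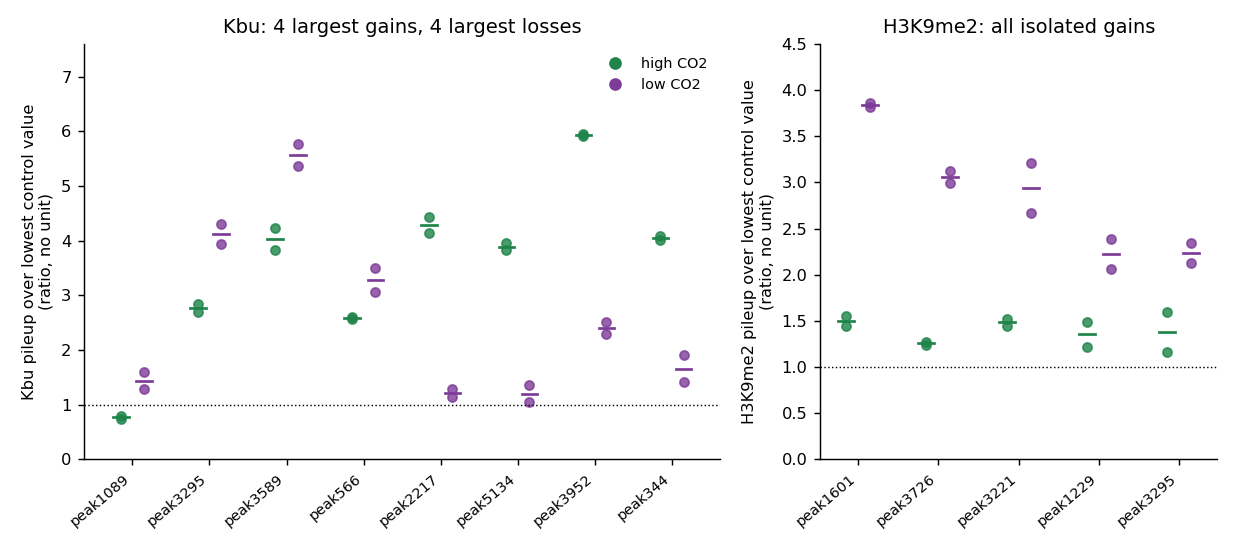
Levels (pileup over the lowest control value, a ratio without unit) in each library at the 4 isolated peaks with the largest Kbu increase and the 4 with the largest decrease (left), and at all 5 isolated peaks where H3K9me2 rose (right). Points are libraries, bars are means of 2, and the dotted line marks 1. Peak2217 goes from 4.13 and 4.43 at high CO2 to 1.15 and 1.29, and peak1601 in H3K9me2 from 1.55 and 1.44 to 3.86 and 3.81.

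The 3 isolated peaks with the most Kbu at high CO2 all fell relative to the bulk. They were picked from the high-CO2 libraries that the change subtracts, which favours a fall, as it favours a rise at the lowest peaks, so their changes are a description. Peak4646, also among the widest, had 6.92 and 6.68 at high CO2, then 3.54 and 4.15 at low CO2, a change of -0.32 (limma adjusted p = 0.0051). Peak5368 (chromosome 6, 1290421 to 1291574, 1153 bp) had 6.72 and 6.64, then 3.10 and 2.86, a change of -0.65 (limma adjusted p = 6.3e-05). Peak4727 (chromosome 4, 1197318 to 1198665, 1347 bp) had 5.94 and 6.17, then 3.18 and 3.28, a change of -0.40 (limma adjusted p = 0.00064). At the other end, peak1073 (chromosome 13, 47466 to 48426) had 1.48 and 1.46 at high CO2, then 1.57 and 1.34 at low CO2. Peak3800 (chromosome 27, 391539 to 392214) had 1.65 and 1.48, then 1.57 and 1.32. Both rose relative to the bulk, by 0.47 and 0.37, but over the lowest control value their changes were -0.016 and -0.12, and the groups overlapped. Neither passed without high-CO2 replicate 2 (limma adjusted p = 0.067 and 0.27), and peak3800 not without high-CO2 replicate 1 (0.071).

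The most isolated peaks of all were a pair of neighbours on chromosome 15, peak1666 (901133 to 902317) and peak1667 (935821 to 937138), with 33504 bp between them. They changed in opposite directions. Peak1667 had Kbu levels of 3.73 and 3.92 at high CO2, then 1.77 and 1.47 at low CO2, a change of -0.73 (limma adjusted p = 0.00034). Peak1666 started at the same height, 3.72 and 3.51, and held 3.22 and 3.70 at low CO2, a rise of 0.43 relative to the bulk (limma adjusted p = 0.0013) that was -0.067 over the lowest control value. The next in order, peak588 (chromosome 11, 55480 to 56122), changed by -0.17 without passing (limma adjusted p = 0.12). Peak3051 (chromosome 21, 673596 to 674858) fell by 0.30 (limma adjusted p = 0.018), a call lost without high-CO2 replicate 2 (0.11).

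H3K9me2 rarely passed at isolated peaks. On pileup it rose at 5 (2.39%) and fell at 0, while limma called 3.99% of all peaks higher and 1.03% lower. At an unadjusted p under 0.05 in limma, 14 isolated peaks were higher and 12 lower, where 8.80% of all peaks were higher and 6.66% lower. Without replicate 1 of either CO2 level 1.44% of isolated peaks rose. The median change was -0.01 at isolated and -0.02 at other peaks. On the authors' normalised value, which carries the factor per library, 53 isolated peaks (25.4%) rose and 19 (9.09%) fell. Limma called 24.5% and 12.1% of all peaks. With library totals 14.4% rose and 21.1% fell, beside 14.2% and 29.0% of other peaks. Without high-CO2 replicate 1 or 2, 0% fell and 13.4% rose each time, beside at most 1.31% and 13.7% of other peaks.

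The clearest H3K9me2 gain was at peak1601 (chromosome 15, 578198 to 579240, 1042 bp). Its levels were 1.55 and 1.44 at high CO2, then 3.86 and 3.81 at low CO2. It was picked as the largest called change with separate groups. Over the control, which was also higher at low CO2, it was 1.19 and 1.11, then 1.22 and 1.19. The change was 1.11 (SE 0.15, limma adjusted p = 5.2e-11), and 1.44 in the ratio. Peak3726 (chromosome 26, 621637 to 623307, 1670 bp) went from 1.27 and 1.24 to 3.12 and 2.99, a change of 1.03 (limma adjusted p = 1.2e-09), where the control at low CO2 was 6.03 times its lowest value. Its pileup was thus below the control.

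Peak3221 (chromosome 23, 64351 to 65961, 1610 bp) combined an H3K9me2 gain with a Kbu loss. H3K9me2 was 1.52 and 1.44 at high CO2, then 2.67 and 3.21 at low CO2, a change of 0.75 (limma adjusted p = 3.9e-05). Kbu was 3.29 and 3.53, then 1.72 and 1.64, a change of -0.50 (limma adjusted p = 0.0010). It was the 1 isolated peak called in these opposite directions, as were 0.21% of all peaks. The changes of the marks differed by -1.25 there (limma interaction, adjusted p = 4.4e-05).

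Peak1229 (chromosome 13, 772816 to 774280, 1464 bp) had H3K9me2 at 1.22 and 1.49, then 2.06 and 2.38, a change of 0.49 (limma adjusted p = 0.025). Peak3295, described above for Kbu, had 1.17 and 1.59, then 2.34 and 2.12, a change of 0.48 (limma adjusted p = 0.028). Of the 5 isolated peaks that rose in H3K9me2, peak1601, peak3726 and peak3295 also rose in Kbu. Over all peaks it was 172 of the 247 that rose in H3K9me2, and 2.78% of all peaks rose in both. For peak1601 and peak3726 the Kbu change was -0.21 and -0.17 over the lowest control value. The Kbu call at peak1601 was lost without high-CO2 replicate 1 (limma adjusted p = 0.16). Peak1229 missed the threshold without any 1 of the 4 libraries (limma adjusted p between 0.070 and 0.26), and peak3295 without replicate 1 of either CO2 level (0.39 and 0.38).

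The isolated peak with the most H3K9me2 was peak6010 (chromosome 9, 418238 to 420179, 1941 bp), at 4.29 and 4.13 at high CO2, then 5.36 and 6.07 at low CO2. It was the 1 isolated peak above 2 in both high-CO2 libraries, and its change of 0.23 did not pass (limma adjusted p = 0.60). The Kbu level there was 5.20 and 5.92, then 4.70 and 4.80. Over its control, H3K9me2 was 2.64 and 2.66 at high CO2 but 1.14 and 1.28 at low CO2. Kbu over the control was 3.09 and 3.68, then 0.992 and 1.03, so both marks were above the control at high CO2 and near it at low CO2.

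**Figure D5:**
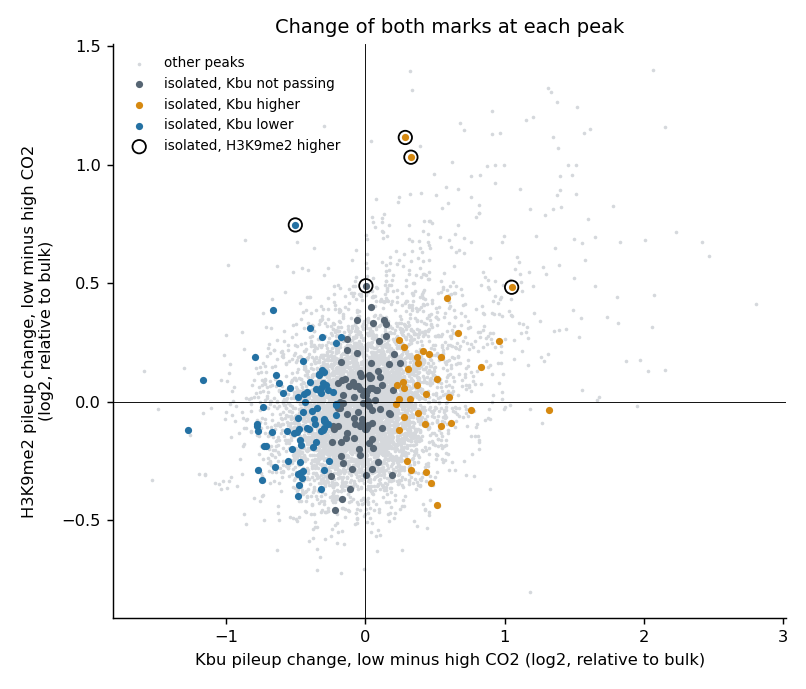
Change of pileup (log2, low minus high CO2, relative to the bulk) of Kbu against that of H3K9me2, for isolated peaks over all other peaks. Kbu changes of isolated peaks run from -1.27 to 1.32, and 5 isolated peaks rose in H3K9me2.

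The CO2 change differed between the marks at 35 isolated peaks (16.7%), tested as an interaction in limma over all 8 libraries, which called 13% of all peaks. This fit takes a common spread per peak for both marks, though counting error was larger for H3K9me2. What that does to its p-values was not tested. At 21 (10.0%) the Kbu change was below that of H3K9me2 and at 14 (6.70%) above it, beside 6.77% and 6.26% of all peaks. Leaving out any 1 of the Kbu libraries, which leaves 1 in its group, lowered both shares at isolated and at other peaks alike. Peak2217 differed by -1.15 (limma adjusted p = 0.00014) and peak1089 by 1.35 (0.00031). Kbu and H3K9me2 changes had a Pearson correlation of 0.26 across the 209 isolated peaks, given as a description. It was 0.36 over all 6125 peaks with 2 neighbours.

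In the authors' deposited table, 32 isolated peaks (15.3%) carried the Kbu status loss, which there means lower at high CO2, and 6 (2.87%) the status gain, beside 15.6% and 2.93% of all peaks. For H3K9me2 the authors' deposited table gave 13 losses (6.22%) and 0 gains, beside 7.73% and 0% of all peaks. An adjusted p was given in the authors' deposited table at only 69 isolated peaks (33.0%) in Kbu and 25 (12.0%) in H3K9me2. Of all peaks, 39.9% and 16.6% had one. It was under 0.05 at 17 isolated peaks (8.13%) in Kbu and 9 (4.31%) in H3K9me2, beside 10.1% and 4.79% of all peaks. The status does not stand for that threshold. In the authors' deposited table more of all peaks carried the status loss than passed 0.05, 964 against 624 in Kbu and 478 against 296 in H3K9me2.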

How the data were processed

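The 8 ChIP-seq libraries were analysed as 4 groups of 2. Trimming, alignment and peak tools (BWA, Trim Galore, MACS2, Picard and deepTools) are listed in the submitters' processing notes. Not given in the sources used here are versions, settings, genome build, the coordinates' counting base and the control libraries. Per the file headers the authors deposited a pileup signal, a lambda background signal and a normalised signal for each library at the same 6185 peaks. The normalised value is 10 times the pileup over lambda, rounded down and divided by a factor per library, in 100% of peaks. The authors also deposited a log2 fold change with its standard error, a test statistic (a score), a p-value and an adjusted p-value.

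Low was compared with high CO2 in limma 3.58.1 (R 4.3.3, two-sided, moderated by empirical Bayes with a trend), on log2(value + 1) over all 6185 peaks. No filter was applied, p-values were Benjamini-Hochberg adjusted, and the threshold was 0.05. The fits were tested on simulated data. Such fold changes understate changes at low values. Python 3.11.15, pandas 2.3.3, NumPy 2.4.6 and Matplotlib 3.10.9 did the rest.

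Peaks take the place of genes. Named were the 4 largest called pileup changes per mark and direction with separate libraries, the 4 with the largest smaller gap, the 3 highest and 3 lowest in Kbu at high CO2, the 3 highest in H3K9me2 at low CO2, the 2 widest and 2 narrowest, and the 2 on each side of the gap threshold. Peak3295 in H3K9me2 was named outside this rule, after its values were seen, to complete the 5 calls. The members, lists and tests were chosen with earlier results of these data known. Alternatives were gaps of 5000 and 8000 bp, pseudocounts of 0.5 and 2, leaving out the lowest 25% of peaks, other scalings, an adjusted p under 0.01, a replicate block and each library left out.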

Additional observations from a re-analysis of the deposited data

Results flagged for a closer look

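At 35 isolated peaks the pileup change with CO2 differed between Kbu and H3K9me2 by the test of the difference itself (limma interaction, adjusted p under 0.05). Kbu was the lower of the changes at 21 and the higher at 14. Limma called 13% of all peaks on this test, which takes a common spread per peak for both marks although their counting error differed. The largest differences among the named peaks were 1.35 at peak1089, -1.26 at peak5134 and -1.25 at peak3221.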

How the results depend on the processing

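Of the values that answer a comparison, 143 alternatives stayed near the reported value and 59 moved it. Measured over the lowest control value, which is not relative to the bulk, 87.1% of isolated peaks fell and 2.39% rose in Kbu. Among other peaks it was 83.5% and 3.63%. On that scale 86.1% and 0.478% of isolated peaks passed the interaction with Kbu below or above (other peaks 78.0% and 0.452%). Kbu pileup changes then turned to -0.21 (peak1601), -0.17 (peak3726), -0.50 (peak1229), -0.067 (peak1666), -0.016 (peak1073), -0.12 (peak3800), -0.22 (peak6010) and -0.49 (peak3950). At an adjusted p under 0.01, H3K9me2 rose in pileup at 1.44% and fell in the ratio at 5.26% (other peaks 2.53% and 7.40%). The interaction then gave 2.87% above and 4.31% below (other peaks 2.28% and 2.58%). Without the lowest 25% of peaks the H3K9me2 ratio fell at 1.44% and the interaction gave 2.87% above (other peaks 3.11% and 3.21%). Before rounding down the H3K9me2 ratio fell at 14.8% (other peaks 25.0%). With library totals it fell at 21.1% and rose at 14.4% (other peaks 29.0% and 14.2%). With gaps of 5000 bp, H3K9me2 fell in pileup at 0.739% and the interaction gave 4.43% above (other peaks 1.06% and 6.39%). Level differences (log2) were then -0.030 (H3K9me2) and -0.059 (Kbu) at low CO2. Change differences were 0.040 (H3K9me2 ratio) and -0.12 (Kbu pileup). With gaps of 8000 bp, H3K9me2 rose in pileup at 3.85% and fell in the ratio at 5.77% (other peaks 3.99% and 12.2%). Level differences at low CO2 were then -0.062 (H3K9me2) and -0.092 (Kbu). Change differences were -0.046 (H3K9me2 pileup) and -0.12 (Kbu pileup). Against other peaks weighted to the same width quartiles, level differences were -0.080 (H3K9me2, low), -0.030 (Kbu, high) and -0.12 (Kbu, low). Change differences were then 0.24 (H3K9me2 ratio), -0.074 (Kbu pileup) and 0.085 (Kbu ratio). The width difference was then 9 bp, but the weighting itself makes it small, so this move says nothing about the width result. Over the control, level differences were 0.032 (H3K9me2, low), 0.011 (Kbu, high) and -0.011 (Kbu, low). With 1 library left out, isolated shares ranged over 1.44 to 1.91% (H3K9me2 pileup higher), 0 to 0% (lower), 13.4 to 22.5% and 0 to 7.66% (H3K9me2 ratio higher, lower), 11.0 to 24.4% and 23.0 to 45.0% (Kbu pileup), 22.5 to 41.6% and 9.09 to 30.6% (Kbu ratio), and 2.39 to 6.22% and 4.31 to 11.0% (interaction above, below). Level differences ranged over -0.055 to 0, -0.042 to -0.038 (H3K9me2, high and low), 0.033 to 0.048 and -0.070 to -0.061 (Kbu), and change differences over -0.023 to 0.010 and 0.11 to 0.14 (H3K9me2 pileup, ratio) and -0.093 to -0.082 and -0.050 to -0.0011 (Kbu). Wherever an isolated share moved by over 1.5 times with 1 library left out, the share of other peaks moved in the same direction. The cause of these moves was not tested. Library numbers correlated by 0.042 (H3K9me2) and 0.112 (Kbu) in pileup, over 2 pairs only. That cannot decide whether a number stands for a shared culture or batch, and the numbers were used as names. With a replicate block H3K9me2 fell in pileup at 0.478% of isolated and 1.22% of other peaks. The block moved no other isolated share by over 1.5 times. Low read numbers limit H3K9me2 most, and single-position pileups give no total depth.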

Other observations

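Wider isolated peaks had more Kbu at high CO2 (Pearson correlation 0.50 over 209 peaks, which share libraries). Isolated peaks with more Kbu at high CO2 had lower Kbu changes (-0.36, where the high-CO2 libraries enter both measures). Kbu and H3K9me2 levels at low CO2 had a correlation of 0.44 across the same peaks. All 6125 peaks with 2 neighbours gave similar values of 0.52, -0.41 and 0.43.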
